A study of Mus musculus with 14 samples.

Results

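The 8 genes described here are those that build triglyceride and supply its glycerol backbone: Gpam, Agpat2, Lpin1, Dgat1, Dgat2, Pck1, Gpd1 and Aqp7. They were taken by symbol from the 23441 genes of the deposited count matrix, and all 8 passed the filter on low counts, which kept 17494 genes. RNA of bone marrow plugs from the distal tibia, a site rich in bone marrow adipose tissue (BMAT), was sequenced in 14 samples of male C57BL6/SJL mice (a mixed background), aged 24 weeks. The study asked how the marrow responds to caloric restriction when bone marrow adipocytes (BMAds) lack Pnpla2, which encodes the lipase that starts triglyceride breakdown. There were 4 samples of BMAd-Pnpla2+/+ mice with free access to food (ad libitum, AL) and 4 after 6 weeks of 30% caloric restriction (CR), with 3 of each for BMAd-Pnpla2-/- mice. Each sample pooled the plugs of a pair of mice. The time between the last daily meal, given before the dark phase, and tissue collection is not given in the sources used here.

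According to the study, controls and knockouts alike carried the BMAd-Cre alleles: Osterix-FLPo, and FLPo-activated Adipoq-Cre (FAC), whose Cre is turned on by FLPo. The Cre cassette lowers circulating adiponectin in both genotypes, and the genotypes differ in whether Pnpla2 is floxed. Recombination is limited to cells that have expressed both loci and may be incomplete, so that some BMAds of BMAd-Pnpla2-/- mice may still hold an intact Pnpla2. Labels do not say whether samples of a group came from separate litters or how AL mice were caged, so p-values measure the spread between these pools. For CR, the study's methods describe a move to single housing before the restriction.

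Triglyceride is made in the endoplasmic reticulum by adding fatty acyl groups, one after the other, to glycerol 3-phosphate. The GPAT enzymes add the first acyl group and the AGPAT enzymes the next, the lipins remove the phosphate, and the DGAT enzymes add the last acyl group. White adipocytes hold little glycerol kinase, so they make glycerol 3-phosphate through Gpd1, either from glucose or from pyruvate and amino acids. The latter route also needs Pck1 and is called glyceroneogenesis. It is known for keeping fatty acids in the fat cell during fasting. Aquaporin 7 lets out the glycerol that lipolysis sets free.

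Promoters are shown for the members that rose with CR and have an entry in the RefSeq table (Agpat2, Lpin1 and Aqp7), and for Pck1, whose promoter is the textbook example of a cAMP-responsive one. Each is the 250 bases before the start of transcription in RefSeq, build GRCm38.p6, read 5' to 3' on the strand of the gene. Capitals mark AGGTCA (a hexamer bound by nuclear receptors, searched with its reverse complement TGACCT), TTACGTCA (the cAMP response element of Pck1) and GGGCGG (a GC box), each searched on both strands. The motifs were chosen with the members known.
Agpat2, chr2:26604418-26604667, minus strand: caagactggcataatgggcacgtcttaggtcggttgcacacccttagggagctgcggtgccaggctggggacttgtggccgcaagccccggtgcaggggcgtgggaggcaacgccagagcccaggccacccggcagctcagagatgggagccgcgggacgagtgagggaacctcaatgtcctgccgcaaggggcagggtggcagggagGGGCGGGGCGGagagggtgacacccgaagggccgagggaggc
Lpin1, chr12:16610967-16611216, minus strand: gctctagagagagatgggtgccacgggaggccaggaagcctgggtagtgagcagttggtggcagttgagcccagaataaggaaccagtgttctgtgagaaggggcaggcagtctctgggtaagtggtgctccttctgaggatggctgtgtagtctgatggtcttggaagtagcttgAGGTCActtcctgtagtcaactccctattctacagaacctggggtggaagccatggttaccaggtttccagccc
Aqp7, chr4:41048137-41048386, minus strand: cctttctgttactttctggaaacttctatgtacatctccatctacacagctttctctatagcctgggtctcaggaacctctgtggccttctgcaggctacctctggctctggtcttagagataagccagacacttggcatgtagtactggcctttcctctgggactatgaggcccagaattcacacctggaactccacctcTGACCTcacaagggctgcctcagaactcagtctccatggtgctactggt
Pck1, chr2:173152823-173153072, plus strand: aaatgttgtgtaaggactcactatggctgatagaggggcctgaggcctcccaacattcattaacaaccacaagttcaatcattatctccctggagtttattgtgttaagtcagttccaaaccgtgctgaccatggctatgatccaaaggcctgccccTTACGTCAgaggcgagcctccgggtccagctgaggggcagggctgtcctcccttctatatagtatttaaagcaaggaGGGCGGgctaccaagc
Agpat2 held 2 GC boxes, starting at positions -42 and -37 from its start and sharing a base, and neither other motif. Lpin1 held AGGTCA at -74 on the strand of the gene, and Aqp7 held it at -49 on the opposite strand. A further Aqp7 start downstream has this same site and another one in its own window. Pck1 held TTACGTCA at -93 and a GC box at -16. Of 32851 mouse promoters of the same length, 14.02% held AGGTCA, 0.447% held TTACGTCA and 32.7% held GGGCGG. TTACGTCA is longer than the other motifs and was chosen as the known element of Pck1, so its match there was given in advance. A match is a run of letters and not evidence of binding. Gpam, which did not rise with CR, held AGGTCA at -196 and a GC box at -16 before its downstream start, and no match before its upstream start. Gpam, Dgat1, Dgat2 and Gpd1 are not shown.

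The unstranded gene counts summed to between 18658806 and 21339006 per sample, and levels are given as CPM, the count of a gene scaled to the size of its library with TMM factors. The share of stranded counts on the first strand was 4.30% to 4.62% in 11 samples and 50.1% to 50.5% in the 3 BMAd-Pnpla2-/- CR samples. These 3 libraries therefore carried no strand information, and library protocol and BMAd-Pnpla2-/- CR cannot be told apart. The tissue label was checked with 8 adipocyte markers, which were all detected in every sample and summed to between 283.4 and 4836 CPM. Neutrophil markers summed to between 9235 and 24459 CPM and erythroid markers to between 7627 and 37573 CPM in the same plugs. In such bulk samples, fewer cells of a type and less RNA per cell cannot be told apart. Of the brown adipocyte markers Ucp1 and Cidea, the summed level was at most 2.68 CPM.

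Pnpla2, the targeted gene, was checked first. BMAd-Pnpla2+/+ mice held 304.9, 176.1, 201.9 and 192.1 CPM of it under AL and 816, 1006, 1029 and 509 CPM under CR. Values for BMAd-Pnpla2-/- mice were 137, 172 and 133 CPM under AL and 179.6, 222 and 271 CPM under CR. All BMAd-Pnpla2-/- samples lay below all BMAd-Pnpla2+/+ samples of the same diet. Under CR the genotype difference was a log2 fold change of -1.91 (edgeR, adjusted p = 0.0387), whereas under AL it was -0.57 and did not pass the test. The call under CR was lost, at adjusted p from 0.0530 to 0.220, without AL replicate 3 or 4 or CR replicate 1 or 2 of BMAd-Pnpla2+/+, or without AL replicate 3 or any CR sample of BMAd-Pnpla2-/- mice. It was also lost with only the groups compared in the fit (adjusted p = 0.208), where edgeR called none of the 16873 genes tested between genotypes under CR, 3145 of them being at an unadjusted p under 0.05. Over the 22 alternatives, fitted with edgeR or DESeq2, the log2 fold change of Pnpla2 under CR stayed between -2.08 and -1.77. Its adjusted p ran from 1.9e-10 to 0.220 in these fits. In caudal vertebrae the study detected mRNA of the deleted allele, which lacks some exons. Counts over the whole gene can include such mRNA. For the intact mRNA that remained there, the study lists cells other than adipocytes among the possible sources. The part of either in the Pnpla2 values given here was not tested.

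With CR in BMAd-Pnpla2+/+ mice, 5 of the 8 members rose: Gpd1, Aqp7, Lpin1, Dgat2 and Agpat2, with log2 fold changes from 0.67 to 2.18. No member fell. Adjusted p was under 0.05 for 26% of the 17494 genes in this comparison, with 15% (2628 genes) higher and 1915 genes lower. Gpd1, Aqp7 and Lpin1 also passed the study's criteria, which add an absolute log2 fold change over 1 and were met by 7.26% of genes in the upward direction. Pck1 had a log2 fold change of 1.35 that missed the test, and Dgat1 and Gpam had 0.10 and -0.34. The median of the members was 1.09 against 0.003 for all genes.

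**Figure D1:**
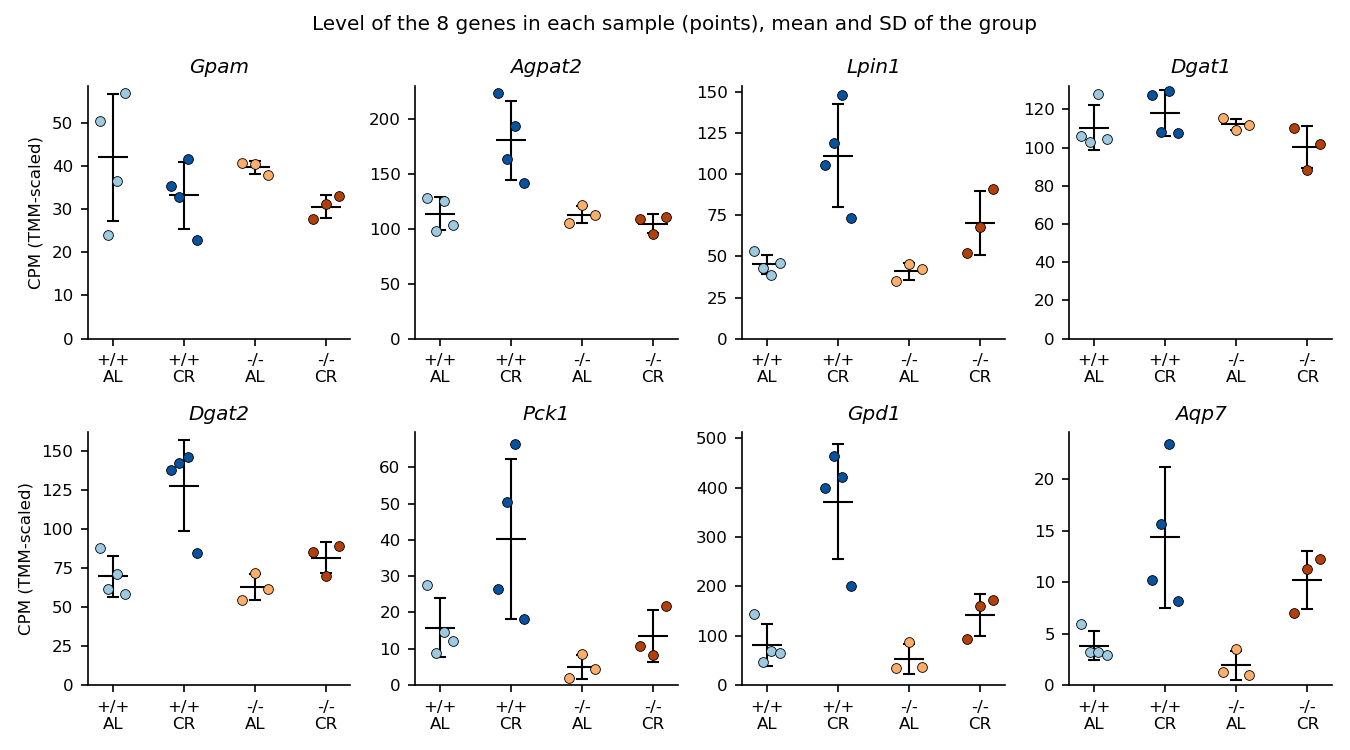
CPM of each member (vertical axis, from 0) by genotype and diet on the horizontal axis, with 1 point per sample and bars for mean and SD (n = 4, 4, 3 and 3). Gpd1, Aqp7, Lpin1 and Agpat2 in BMAd-Pnpla2+/+ CR samples sit above all BMAd-Pnpla2+/+ AL samples, and BMAd-Pnpla2+/+ CR replicate 4 is the lowest of its group in all 8 panels.

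Acylation came first in the order of the pathway. Gpam (ENSMUSG00000024978.11, chr19:55067268-55127238, minus strand, GRCm38), the mitochondrial GPAT, stood at 50.4, 24.0, 36.6 and 56.8 CPM in BMAd-Pnpla2+/+ mice under AL and at 35.4, 32.7, 41.7 and 22.9 CPM under CR. The BMAd-Pnpla2-/- samples held 40.8, 40.3 and 37.8 CPM under AL and 27.6, 31.1 and 33.0 CPM under CR. The BMAd-Pnpla2+/+ groups overlapped from end to end, while the BMAd-Pnpla2-/- CR samples lay below their AL samples. The log2 fold change with CR was -0.34 in BMAd-Pnpla2+/+ (SE 0.23, adjusted p = 0.276) and -0.37 in BMAd-Pnpla2-/- mice (SE 0.26, adjusted p = 0.375). In a fit of the BMAd-Pnpla2-/- groups alone, the latter was -0.41 and passed (adjusted p = 0.0336). Gpam was the 1 member with a value below 0 in both genotypes.

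Agpat2 (ENSMUSG00000026922.13, chr2:26593057-26604417, minus strand), the main AGPAT of fat cells and a gene whose loss causes lipodystrophy, held 128, 98.5, 125 and 103 CPM in BMAd-Pnpla2+/+ mice under AL and 224, 163, 193 and 142 CPM under CR. These groups did not overlap. Values in BMAd-Pnpla2-/- mice were 105, 121 and 112 CPM under AL and 109, 94.9 and 110.3 CPM under CR, which did overlap. Agpat2 rose with CR in BMAd-Pnpla2+/+ mice, with a log2 fold change of 0.67 (SE 0.13, adjusted p = 0.00527). The value in BMAd-Pnpla2-/- mice was -0.11 (SE 0.15, adjusted p = 0.689).

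Lpin1 (ENSMUSG00000020593.16, chr12:16535669-16610966, minus strand) encodes a phosphatidate phosphatase that also acts as a transcriptional coactivator. BMAd-Pnpla2+/+ mice held 53.1, 43.0, 38.9 and 45.9 CPM under AL and 106, 119, 148 and 73.2 CPM under CR. BMAd-Pnpla2-/- samples were at 35.1, 45.3 and 42.3 CPM under AL and 52.4, 67.7 and 90.9 CPM under CR. Both diets were fully apart in both genotypes. Lpin1 rose by 1.30 on the log2 scale in BMAd-Pnpla2+/+ (SE 0.21, adjusted p = 0.00205) and by 0.78 in BMAd-Pnpla2-/- mice (SE 0.24, adjusted p = 0.0478). The latter call was close to the threshold. It held without CR replicates 2, 3 or 4 of BMAd-Pnpla2+/+ or CR replicate 1 of BMAd-Pnpla2-/- mice and was lost when any of the other 10 samples was left out, with the lowest log2 fold change, 0.55 (adjusted p = 0.197), without BMAd-Pnpla2-/- CR replicate 3.

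The enzymes of the last step behaved unlike each other. Dgat1 (ENSMUSG00000022555.12, chr15:76502015-76511953, minus strand), which also esterifies other alcohols, lay between 103 and 128 CPM in BMAd-Pnpla2+/+ AL, between 108 and 130 CPM in BMAd-Pnpla2+/+ CR, between 109 and 115 CPM in BMAd-Pnpla2-/- AL and between 88.4 and 110.2 CPM in BMAd-Pnpla2-/- CR samples. Dgat2 (ENSMUSG00000030747.5, chr7:99153658-99182719, minus strand), which works next to the lipid droplet, stood at 87.6, 61.8, 71.6 and 58.2 CPM in BMAd-Pnpla2+/+ mice under AL and at 138, 142, 147 and 84.7 CPM under CR. Dgat2 in BMAd-Pnpla2-/- mice was at 54.9, 71.7 and 61.9 CPM under AL and at 85.6, 70.2 and 89.2 CPM under CR. Dgat2 rose in BMAd-Pnpla2+/+ mice, with a log2 fold change of 0.87 (SE 0.17, adjusted p = 0.00522), although CR replicate 4 lay below AL replicate 1. For BMAd-Pnpla2-/- mice its value was 0.38 (adjusted p = 0.230), and the Dgat1 values were 0.10 (adjusted p = 0.478) and -0.16 (adjusted p = 0.370).

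Pck1 (ENSMUSG00000027513.11, chr2:173153048-173159273, plus strand), the cytosolic PEPCK of glyceroneogenesis, was at 27.6, 8.93, 14.5 and 12.2 CPM in BMAd-Pnpla2+/+ mice under AL and at 26.4, 50.5, 66.4 and 18.3 CPM under CR. AL replicate 1 reached into the CR range. BMAd-Pnpla2-/- samples held 2.04, 8.64 and 4.40 CPM under AL and 10.8, 8.26 and 21.8 CPM under CR, with an overlap of 1 sample each way. The log2 fold change with CR was 1.35 in BMAd-Pnpla2+/+ (SE 0.50, adjusted p = 0.0603) and 1.44 in BMAd-Pnpla2-/- mice (SE 0.61, adjusted p = 0.136). Neither passed. The first did so without BMAd-Pnpla2+/+ AL replicate 1 (log2 fold change 1.77, adjusted p = 0.0320) or CR replicate 4 (1.59, adjusted p = 0.0254), and without AL replicate 1, AL replicate 2 or CR replicate 3 of the other genotype (adjusted p from 0.0448 to 0.0499).

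Gpd1 (ENSMUSG00000023019.12, chr15:99717515-99725005, plus strand), the cytosolic dehydrogenase that makes glycerol 3-phosphate from a glycolytic intermediate, had the largest log2 fold change of the members in BMAd-Pnpla2+/+ mice. Its levels were 144, 47.3, 69.8 and 65.7 CPM under AL and 400, 464, 422 and 202 CPM under CR, with no overlap. Its log2 fold change was 2.18 (SE 0.41, adjusted p = 0.00416). BMAd-Pnpla2-/- mice held 33.7, 87.4 and 36.3 CPM under AL and 93.7, 161 and 173 CPM under CR. These did not overlap either, but the log2 fold change of 1.44 (SE 0.46) missed the test at an adjusted p of 0.0587. It passed with DESeq2 (adjusted p = 0.0126), in a fit of these groups alone (adjusted p = 0.0470), and without AL replicate 1 or CR replicate 4 of BMAd-Pnpla2+/+ or AL replicate 2 or CR replicate 1 of BMAd-Pnpla2-/- mice (adjusted p from 0.0222 to 0.0489). Gpd1 shares part of its exons with the antisense gene Gm16537, and the unstranded count leaves out read pairs that fall on both. Its reverse-strand count was 121% to 127% of the unstranded one in the 11 stranded samples.

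Aqp7 (ENSMUSG00000028427.13, chr4:41033074-41048139, minus strand), the glycerol channel of adipocytes, was the scarcest member per length of transcript in 3 of the 4 groups. It was at 5.92, 3.21, 3.24 and 2.88 CPM in BMAd-Pnpla2+/+ mice under AL and at 10.2, 15.7, 23.4 and 8.13 CPM under CR. The BMAd-Pnpla2-/- values were 1.27, 3.52 and 0.965 CPM under AL, from 18 to 66 counts, and 6.99, 11.3 and 12.3 CPM under CR. The diets were apart in both genotypes. Aqp7 rose by 1.91 on the log2 scale in BMAd-Pnpla2+/+ (SE 0.41, adjusted p = 0.00792) and by 2.40 in BMAd-Pnpla2-/- mice (SE 0.51, adjusted p = 0.0142), where it had the largest log2 fold change of the members. In BMAd-Pnpla2-/- mice the call was lost, at adjusted p from 0.0552 to 0.0596, without AL replicate 1, AL replicate 3 or CR replicate 3.

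In BMAd-Pnpla2-/- mice, 2 of the 8 members, Aqp7 and Lpin1, thus rose with CR and none fell. Adjusted p was under 0.05 for 11.6% of all genes in this comparison, with 6.01% higher, and Aqp7 alone met the added criteria, as did 2.59% of genes in the upward direction. The calls over all genes split into 1051 higher and 974 lower with TMM, 900 and 1246 with RLE size factors and 1386 and 682 with total counts. Aqp7 was called higher under all of these, whereas Lpin1 was called with TMM and total counts but not with RLE size factors. The median log2 fold change of the members was 0.58 against 0.05 for all genes. Counted by ranges, 4 members (Agpat2, Lpin1, Gpd1 and Aqp7) in BMAd-Pnpla2+/+ mice had all CR samples above all AL samples, against 12.3% of genes, and 3 (Lpin1, Gpd1 and Aqp7) in BMAd-Pnpla2-/- mice, against 20.5%. Gpam was the 1 member with all CR samples below all AL samples in BMAd-Pnpla2-/- mice, as were 17.4% of genes. BMAd-Pnpla2-/- CR replicates 2 and 3 also held more of the skeletal muscle markers, which summed to 34.5 and 102 CPM there against 6.72 to 25.5 CPM in the other 12 samples, and their part in the members' values was not tested. With 1 sample left out at a time, the count of members called was 0 to 3, and it was 0 without AL replicate 1, AL replicate 3 or CR replicate 3.

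**Figure D2:**
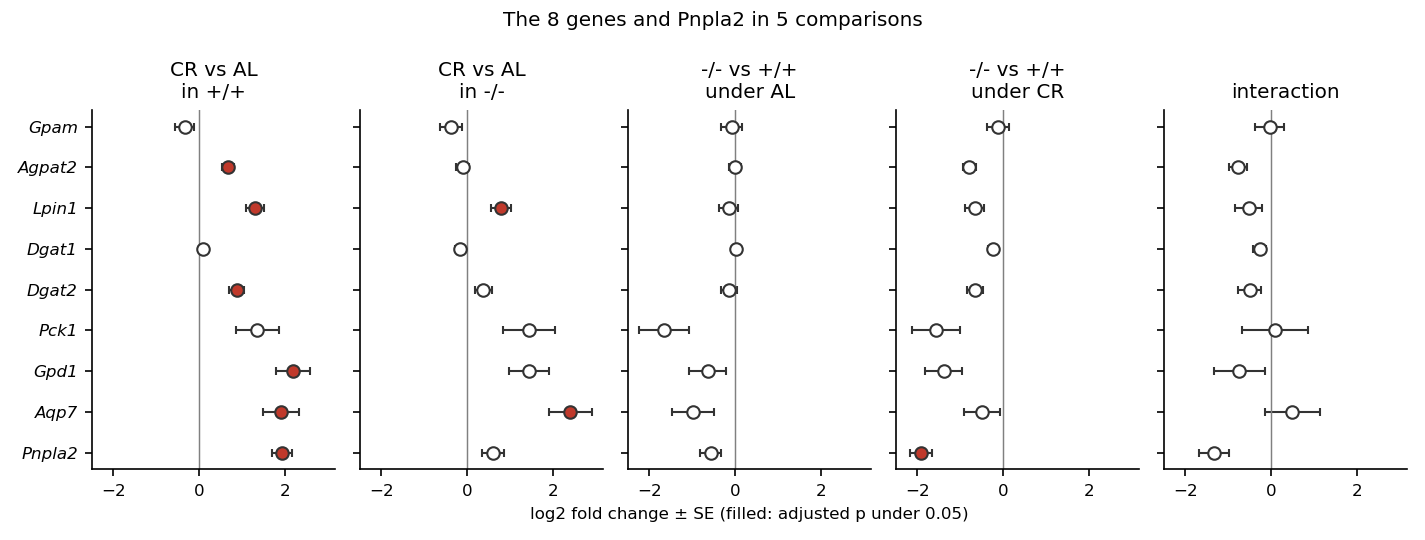
Log2 fold change (horizontal axis) of each member and of Pnpla2 (vertical axis) in the 5 comparisons, with bars for the SE and filled points for an adjusted p under 0.05. In the first panel 5 members and Pnpla2 are filled, in the second Lpin1 and Aqp7, and in the other 3 no member.

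The genotypes were compared next. The 5 comparisons share their groups of samples and are not independent of each other. Under AL edgeR called no member and no other gene (0% of 17494, with 694 at an unadjusted p under 0.05), and DESeq2 called 19 genes, none of them a member. The largest difference was that of Pck1, with a log2 fold change of -1.65 (SE 0.58) and an unadjusted p of 0.0136, the 1 member under 0.05. Its BMAd-Pnpla2-/- AL samples, at most 8.64 CPM, lay below all BMAd-Pnpla2+/+ AL samples, of which the lowest had 8.93 CPM. For such a downward separation the share of all genes was 3.14%. The other members ranged from -0.99 for Aqp7 to 0.02 for Dgat1.

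Under CR all 8 members were lower in BMAd-Pnpla2-/- mice by point estimate, and none was called by edgeR, where 0.0171% of genes were called. Log2 fold changes were -1.57 for Pck1, -1.39 for Gpd1, -0.78 for Agpat2, -0.67 for Lpin1, -0.65 for Dgat2, -0.50 for Aqp7, -0.24 for Dgat1 and -0.12 for Gpam. Agpat2 came closest, with an adjusted p of 0.0541, and 6 members had an unadjusted p under 0.05. All BMAd-Pnpla2-/- CR samples lay below all BMAd-Pnpla2+/+ CR samples for 2 members, Agpat2 and Gpd1, as for 8.11% of genes. The calls in this comparison depended on the test and on single libraries. DESeq2 called 4 members lower (Agpat2, Dgat2, Gpd1 and Lpin1, adjusted p from 2.7e-04 to 0.0322) and 1505 genes in all. Without BMAd-Pnpla2+/+ CR replicate 4, edgeR called 5 members lower, adding Pck1, and 2092 genes in all. That library had the fewest adipocyte and the most erythroid markers of its group, with 1904 and 37573 CPM against at least 3674 and at most 22080 CPM in the other 3, and their part in the result was not tested. Agpat2 alone was called without AL replicate 2 (adjusted p = 0.0434) or CR replicate 3 (adjusted p = 0.0452) of BMAd-Pnpla2+/+ mice. The deposited matrix, which mixes strand settings between these groups, gave 3 members, Agpat2, Dgat2 and Gpd1.

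No member differed in its CR response between the genotypes in the test of the interaction, in which edgeR called 0% of genes (1824 at an unadjusted p under 0.05) and DESeq2 called 43, none of them a member. Agpat2 had the interaction with the lowest unadjusted p, 0.0020, at a log2 difference of -0.77 (SE 0.20, adjusted p = 0.337). For Gpd1 the difference was -0.74, for Lpin1 -0.52, for Dgat2 -0.50, for Dgat1 -0.26, for Gpam -0.04, for Pck1 0.08 and for Aqp7 0.49. With 1 sample left out at a time these differences moved: Gpd1 ran from -1.17 without BMAd-Pnpla2+/+ AL replicate 1 to -0.16 without BMAd-Pnpla2-/- AL replicate 2, and Aqp7 from 0.18 without BMAd-Pnpla2-/- AL replicate 3 to 1.27 without BMAd-Pnpla2-/- AL replicate 2. Lpin1 ran from -0.75 to -0.35, Dgat2 from -0.65 to -0.39, Dgat1 from -0.34 to -0.18 and Agpat2 from -0.87 to -0.64, while Gpam (-0.22 to 0.16) and Pck1 (-0.43 to 0.72) changed sign. The rise of Agpat2, Dgat2 and Gpd1 in BMAd-Pnpla2+/+ mice without a call in BMAd-Pnpla2-/- mice is therefore not a shown difference between genotypes.

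Levels of different members were compared per kilobase of exon. In BMAd-Pnpla2+/+ AL samples the order was Agpat2 (53.4 ± 7.08 CPM per kb, SD), Dgat1 (36.2), Gpd1 (27.6), Dgat2 (22.6), Gpam (6.30), Lpin1 (4.68), Pck1 (4.61) and Aqp7 (1.35). Neighbours overlapped except Agpat2 with Dgat1, Dgat2 with Gpam and Pck1 with Aqp7. With CR in these mice Gpd1 took the first place at 126 ± 39.4 CPM per kb, before Agpat2 at 84.8, with which it overlapped. Gpam moved to the last place at 4.98 CPM per kb, overlapping with Aqp7 at 5.07. BMAd-Pnpla2-/- mice had Agpat2 first under both diets, at 53.0 and 49.2 CPM per kb. Gpd1 held the fourth place there under AL at 17.7 CPM per kb and the place after Agpat2 under CR at 48.1, with overlapping samples.

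The members were then set against the adipocyte markers of the same samples, whose levels moved with the diet. All 8 markers rose with CR in both genotypes, and their summed level was 694 to 1810 CPM in BMAd-Pnpla2+/+ AL, 1904 to 4836 in BMAd-Pnpla2+/+ CR, 283.4 to 696 in BMAd-Pnpla2-/- AL and 1222 to 1966 in BMAd-Pnpla2-/- CR samples. No marker was called between genotypes, with medians of -1.41 under AL and -1.21 under CR on the log2 scale and 6 of 8 at an unadjusted p under 0.05 in each. In 3 of the 4 groups the sample with the most markers was also the highest for most members. BMAd-Pnpla2+/+ AL replicate 1 was the highest of its group for 6 members and for the summed markers, as was BMAd-Pnpla2-/- AL replicate 2, BMAd-Pnpla2-/- CR replicate 3 was the highest for 7 members and the summed markers, and BMAd-Pnpla2+/+ CR replicate 4 was the lowest for all 8 members and the summed markers. At the top of the BMAd-Pnpla2+/+ CR group the samples differed, since replicate 2 held the most markers (4836 CPM) but was the highest for 1 member, whereas replicate 3 (4661 CPM) was the highest for 6.

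Relative to the mean log2 CPM of the markers, the members were mostly lower under CR. The marker mean itself was 5.44 under AL and 7.72 under CR in BMAd-Pnpla2+/+, and 4.21 and 6.65 in BMAd-Pnpla2-/- samples. A gene with an unchanged level therefore falls with CR on this scale, and stands higher in BMAd-Pnpla2-/- mice. Shares over all genes were not computed on this scale. In BMAd-Pnpla2+/+ mice all 8 were lower under CR than under AL on this scale, with a difference of -2.57 for Gpam, -2.18 for Dgat1, -1.62 for Agpat2, -1.42 for Dgat2, -1.01 for Lpin1, -0.98 for Pck1, -0.45 for Aqp7 and -0.03 for Gpd1. Gpd1 kept pace with the markers within its spread (pooled SD 0.19) and turned to 0.25 when Plin1 and Cidec alone served as markers. In BMAd-Pnpla2-/- mice 7 members were lower, with Gpd1 at -0.91 (pooled SD 0.13, no overlap of samples), and Aqp7 was at 0.08. Between genotypes under CR, Gpam (0.98) and Aqp7 (0.65) were higher in BMAd-Pnpla2-/- mice on this scale with no overlap of samples, whereas Pck1 (-0.44) and Gpd1 (-0.30) had values below 0. Gpd1 and Aqp7 were thus the members whose levels followed the adipocyte markers most closely with CR in BMAd-Pnpla2+/+ mice, and Gpam and Dgat1 those that followed them least. These relative levels are a description, and the part of adipocyte number in the members' values was not tested.

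**Figure D3:**
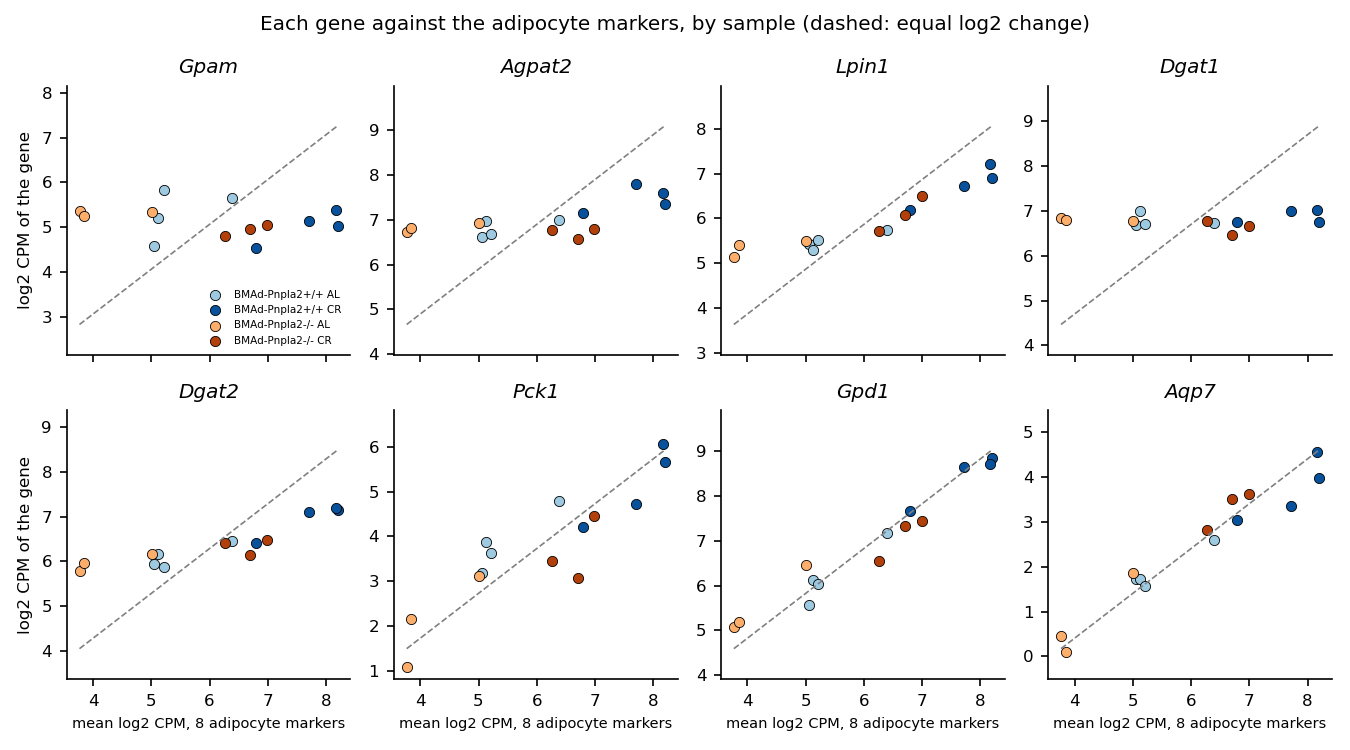
Log2 CPM of each member (vertical axis) against the mean log2 CPM of the 8 adipocyte markers (horizontal axis), with 1 point per sample coloured by group and a dashed line for an equal log2 change. From AL to CR, Gpd1 runs along the line in BMAd-Pnpla2+/+ samples and falls short of it in BMAd-Pnpla2-/- samples (-0.91), whereas Gpam and Dgat1 run flat while the marker mean of the groups ranges from 4.21 to 7.72.

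Markers of other marrow cells moved with CR as well. Their counts of calls stand beside 2628 genes higher and 1915 lower among all 17494 in BMAd-Pnpla2+/+ samples, and 1051 and 974 in the other genotype. Whether the markers exceeded this background was not tested. In BMAd-Pnpla2+/+ mice 3 of 5 neutrophil markers and 2 of 5 B cell markers (Igll1 and Vpreb1) fell, and 3 of 4 endothelial markers, 2 of 5 osteoblast markers (Col1a1 and Sp7), 1 of 4 stromal reticular markers (Kitl) and 1 of 4 macrophage markers rose. In BMAd-Pnpla2-/- mice the same 2 B cell markers fell and Kitl rose, and none of the neutrophil, endothelial, osteoblast, macrophage, erythroid or skeletal muscle markers was called. None of these lists held a call in the genotype comparisons. The 3 genes with the pattern most like that of Gpam over the 14 samples were Cbx2 (Pearson r 0.93), Irf4 (0.92) and Pou2af1 (0.91), of which Irf4 and Pou2af1 are known from B and plasma cells. On deviations from the group means, r with Gpam was 0.98 for Cbx2, 0.91 for Irf4 and 0.89 for Pou2af1. Within groups, the order of Gpam and of the summed B cell markers did not always match. In BMAd-Pnpla2+/+ AL samples the lowest value of both was in replicate 2 (192 CPM of the markers) and the highest in replicate 4 (917 CPM). In BMAd-Pnpla2+/+ CR samples replicate 3, the highest for Gpam, held the least of the markers (338 CPM), and replicate 4, the lowest for Gpam, held the most (423 CPM). BMAd-Pnpla2-/- CR samples had the lowest of both in replicate 1 and the highest in replicate 3, and BMAd-Pnpla2-/- AL samples had the lowest of both in replicate 3 but the highest in different samples. The part of B cells in the Gpam level was not tested.

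The same search, over 14829 genes with a mean of at least 1 CPM, gave other neighbours for the remaining members, as a description, since the values of each sample come from 1 library and the samples from 4 groups. For Agpat2 they were Mfn2 (r 0.92), the droplet gene Bscl2 (0.90) and Nek9 (0.88). Lpin1 went with Acacb (0.98), Ddr1 (0.98) and Slc27a1 (0.98). Dgat2 was most like Echs1 (0.965), Gstz1 (0.96) and Col4a1 (0.96), and Pck1 most like the adipocyte marker Plin4 (0.95), Clmn (0.94) and Slit2 (0.94). Gpd1 followed Itga7 (0.99), Mrap (0.98) and Marc1 (0.98), and Aqp7 followed Ppp1r3c (0.99), Scd1 (0.98) and Car5b (0.98). Dgat1 had weaker neighbours, Card10 (0.81), Igkv4-90 (0.73) and Aldh3b2 (0.72). Among the 28 pairs of members, r ran from -0.22 for Gpam with Aqp7 to 0.94 for Lpin1 with Gpd1.

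Each member but Dgat2 was set against the other enzymes of its step, as its share of their summed CPM per kb. Isoenzymes can be made by different cells of the marrow, so a share describes the plug and not a cell. Gpd1 made up 53.8% ± 10.05 (SD, n = 4) of Gpd1 and Gpd1l in BMAd-Pnpla2+/+ mice under AL and 84.9% ± 4.56 (n = 4) under CR, and 44.0% ± 12.4 (n = 3) and 68.6% ± 6.99 (n = 3) in BMAd-Pnpla2-/- AL and CR samples. Lpin1 was 29.7% ± 5.39 of the lipins under AL and 53.5% ± 11.1 under CR in BMAd-Pnpla2+/+, and 27.2% ± 5.40 and 39.9% ± 8.62 in BMAd-Pnpla2-/- mice, with Lpin2, at 66.8% and 69.9% under AL, as the main one. The AL and CR samples did not overlap in the Gpd1 shares of both genotypes, nor in the Lpin1 and Agpat2 shares of BMAd-Pnpla2+/+ mice. In BMAd-Pnpla2-/- mice the Aqp7 share was higher under CR without overlap, and the Gpam and Dgat1 shares were lower without overlap. All other member shares overlapped between the diets. A background for such separations was not computed.

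Aqp7 made up 13.3% ± 7.73 of the 3 glycerol channels Aqp3, Aqp7 and Aqp9 in BMAd-Pnpla2+/+ mice under AL and 44.9% ± 20.9 under CR, against 6.32% ± 5.07 and 27.6% ± 7.78 in BMAd-Pnpla2-/- mice. Aqp9, which neutrophils express, held the most under AL, with 84.1% and 91.0%. Pck1 was 25.2% ± 10.6 and 53.1% ± 19.6 of Pck1 and the mitochondrial Pck2 in BMAd-Pnpla2+/+, and 10.6% ± 7.70 and 26.4% ± 12.0 in BMAd-Pnpla2-/- mice. Both shares were widely spread between samples of a group. Of Agpat1 to Agpat5, Agpat2 made up 46.6% under AL and 58.3% under CR in BMAd-Pnpla2+/+ mice. Dgat1 was 61.6% and 48.7% of Dgat1 and Dgat2 there, so that Dgat2 was the larger one under CR by the group mean. Gpam was never the main GPAT, with 25.5% to 36.5% in the group means. Gpat4 had 50.2% to 54.4% and Gpat3 12.6% to 20.4%, both GPATs of the endoplasmic reticulum. Gpat3 shares part of its exons with other genes, and its share was 15.2% to 24.4% on reverse-strand counts of the stranded groups.

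**Figure D4:**
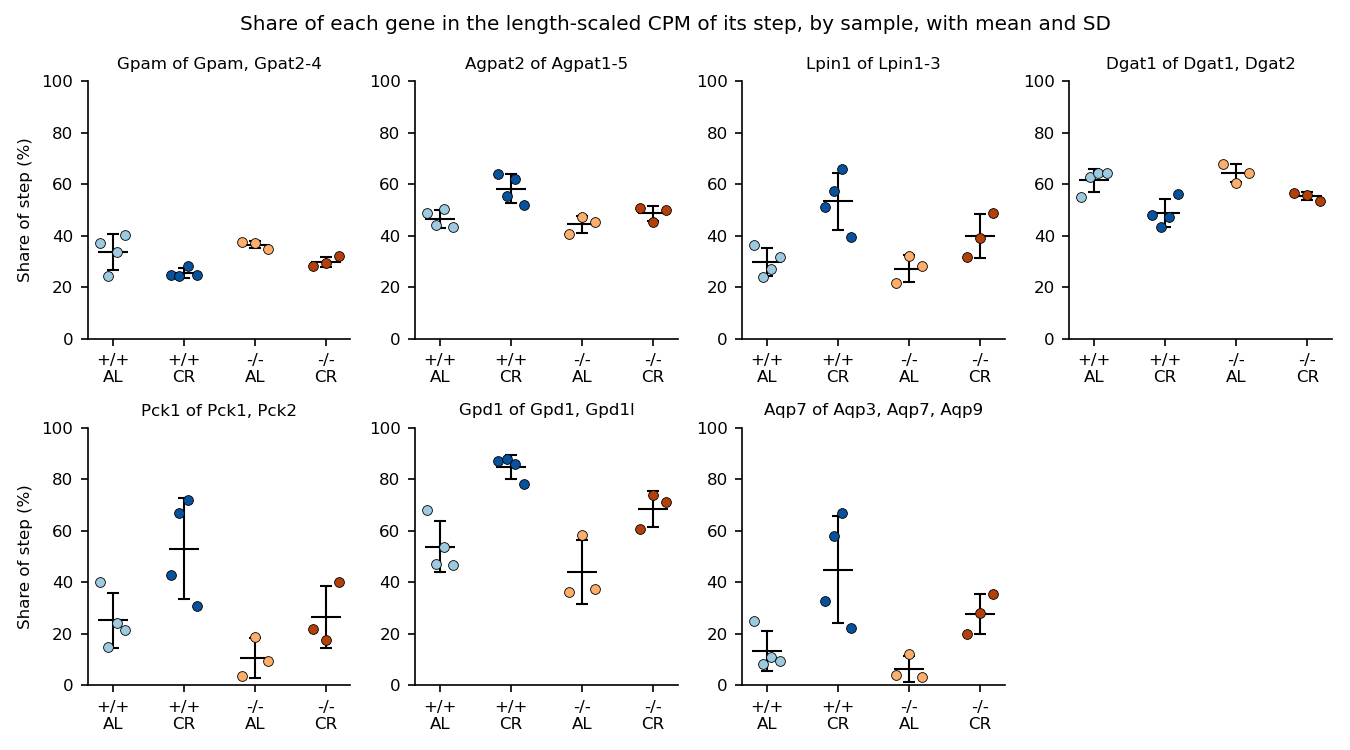
Share of each member in the summed CPM per kb of its step (vertical axis, percent) by genotype and diet, with 1 point per sample and bars for mean and SD. The Gpd1 share is 78.1% to 87.8% in BMAd-Pnpla2+/+ CR samples and at most 68.1% in BMAd-Pnpla2+/+ AL samples, and the Dgat1 share is 43.4% to 56.2% and 55.0% to 64.4% in these.

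The other genes of the pathway were read from 4 lists. With 26% of all genes called for CR in BMAd-Pnpla2+/+ samples (2628 higher, 1915 lower), some calls in any list are likely. The other genotype had 11.6% called (1051 higher, 974 lower). The counts in the lists were not tested against these shares. Of 11 isoenzymes tested, 4 rose with CR in BMAd-Pnpla2+/+ mice and none fell. Lpin3, a lipin of low level, rose most, with a log2 fold change of 1.89 (adjusted p = 0.00733). Gpat2 rose by 1.35, but its level was at most 1.57 CPM and 33.3% to 83.3% of its stranded counts lay on the opposite strand. Agpat3 and Lclat1 rose by 0.40 and 0.31. Lpin3 (1.64, adjusted p = 0.0432) and Lclat1 (0.40) rose in BMAd-Pnpla2-/- mice, whereas Agpat1, the widely expressed AGPAT, fell there by 0.62 on the log2 scale (adjusted p = 0.00741) from 124 ± 7.16 to 80.9 ± 3.35 CPM (SD, n = 3). Its value in BMAd-Pnpla2+/+ mice was -0.08, and the interaction of -0.54 had an adjusted p of 0.337.

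Among 12 genes that supply glycerol 3-phosphate or its precursors, 3 rose and 2 fell with CR in BMAd-Pnpla2+/+ mice. Pdk4, the kinase that turns off pyruvate dehydrogenase, rose by 2.38 on the log2 scale (adjusted p = 0.00449), and by 2.12 in BMAd-Pnpla2-/- mice (adjusted p = 0.0234). Pcx, the pyruvate carboxylase that feeds glyceroneogenesis, rose by 1.43 in BMAd-Pnpla2+/+ mice (adjusted p = 0.00389), from 53.9 ± 15.8 to 146 ± 46.7 CPM (SD, n = 4). Its value of 0.83 for BMAd-Pnpla2-/- mice missed the test (adjusted p = 0.0888). Mdh1, the cytosolic malate dehydrogenase, rose by 0.29, and glycerol kinase (Gk) and Pck2 fell by 0.50 and 0.52 in BMAd-Pnpla2+/+ mice. Mdh2, the mitochondrial form, fell by 0.44 in BMAd-Pnpla2-/- mice.

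Acyl-CoA synthetases activate the fatty acids that the pathway uses. Of 6 tested, 2 rose and 1 fell in BMAd-Pnpla2+/+ mice, and 2 rose in BMAd-Pnpla2-/- mice. Acsl1, the main one of fat cells, had 280 ± 26.9 CPM in BMAd-Pnpla2+/+ mice under AL and 591 ± 87.6 CPM under CR (SD, n = 4) and rose by 1.08 on the log2 scale (adjusted p = 1.9e-04). Its rise in BMAd-Pnpla2-/- mice was 0.58 (adjusted p = 0.0148), and the interaction of -0.50 had an adjusted p of 0.346. Acsbg1 rose by 0.87 and Acsl5 fell by 0.48 in BMAd-Pnpla2+/+ mice, and Acsl4, which prefers arachidonate, rose by 0.46 in BMAd-Pnpla2-/- mice (adjusted p = 0.0285), with -0.10 in BMAd-Pnpla2+/+ mice. Acsl5 shares part of its exons with a gene on the opposite strand.

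All 3 tested genes of lipid droplet formation rose with CR in BMAd-Pnpla2+/+ mice: Fitm2, which partitions triglyceride into droplets (log2 fold change 1.67, adjusted p = 0.00211), Ldaf1, a partner of seipin listed as Tmem159 (0.93, adjusted p = 0.0291), and Bscl2, which encodes seipin (0.67, adjusted p = 0.00210). Fitm2 (1.42, adjusted p = 0.0148) and Ldaf1 (1.15, adjusted p = 0.0390) rose in BMAd-Pnpla2-/- mice too. Bscl2 stood at 84.4 ± 10.5 and 134 ± 15.4 CPM in BMAd-Pnpla2+/+ AL and CR samples (SD, n = 4) and at 91.6 ± 4.87 and 87.3 ± 7.49 CPM in the BMAd-Pnpla2-/- groups (n = 3). The change with CR there was -0.07 on the log2 scale (adjusted p = 0.755), and its interaction of -0.74 had an adjusted p of 0.337. Loss of BSCL2, like that of AGPAT2, is a known cause of lipodystrophy. No gene of the 4 lists was called in the genotype comparisons or the interaction.

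With 1 sample left out at a time, the calls of Lpin3, Pcx, Pdk4, Acsl1, Acsbg1, Bscl2 and Fitm2 in BMAd-Pnpla2+/+ mice held throughout, while those of Agpat3, Gpat2, Lclat1, Mdh1, Gk, Pck2, Acsl5 and Ldaf1 were lost without at least 1 sample of that genotype. For BMAd-Pnpla2-/- mice, only the fall of Agpat1 held throughout. All other calls in these lists were lost there without AL replicate 1, AL replicate 3 or CR replicate 3, the same samples whose omission left no member called.

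**Figure D5:**
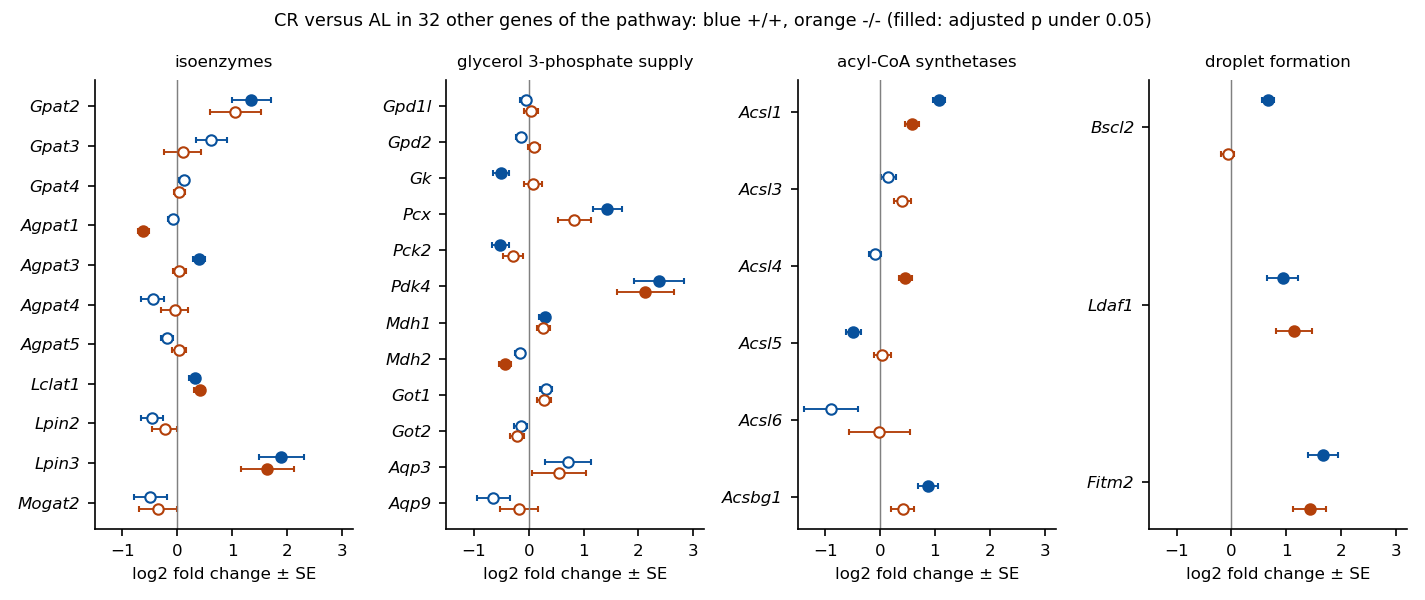
Log2 fold change with CR (horizontal axis, bars for the SE) of the 32 other pathway genes tested, in 4 lists, in BMAd-Pnpla2+/+ (blue) and BMAd-Pnpla2-/- mice (orange), filled where the adjusted p was under 0.05. Pdk4, Lpin3 and Fitm2 lie above 1 and are filled in both genotypes, and Bscl2 and Agpat1 are filled in 1 genotype each.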

How the data were processed

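RNA of distal tibial marrow was sequenced in 14 samples in 4 groups of genotype and diet. Per the labels and the study's methods, the authors made strand-specific paired-end libraries, checked them with FastQC 0.11.9, aligned them to mm10 with STAR and compared groups with DESeq2. They deposited, per sample, STAR's gene counts of 55401 genes (unstranded, first strand and reverse strand, not normalized) and 1 matrix of raw counts of 23441 genes. The matrix equalled the reverse-strand counts in 11 samples and the unstranded counts in the 3 BMAd-Pnpla2-/- CR samples at every gene. Unstranded counts of all 14 samples were therefore used. These leave out read pairs that fall on overlapping genes of either strand.

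The counts were fitted with edgeR 4.0.16 (R 4.3.3) by the robust quasi-likelihood test, two-sided, in 1 model of the 4 groups, after TMM scaling and filterByExpr, which kept 17494 genes. P-values were adjusted by Benjamini and Hochberg over these genes in each of the 5 comparisons, and a gene was called at an adjusted p under 0.05. The SE is the log2 fold change over the square root of F. Log2 CPM used a prior count of 2. The 8 members, the pathway and marker lists and the motifs were chosen with earlier results of these data known. All members and Pnpla2 are named, with pathway genes called in at least 1 comparison, at most 6 a list, beside genes set against a member in its step, and the 3 genes most like each member. Identifiers matched GENCODE M21 (GRCm38) for 23413 of 23441 genes, and exon lengths came from it. No column of another series was used. On simulated counts with 200 changed genes among 17494, the test found 183 and 166 for CR in BMAd-Pnpla2+/+ and BMAd-Pnpla2-/- mice, 184 and 169 for genotype under AL and CR, and 138 for the interaction, with 4 to 15 false calls. The changed genes left out those of the lowest level. All were given a change of the same size, up or down, larger than the interaction estimate of any member. These counts do not show how often smaller changes would be found. Alternatives were the deposited matrix, reverse-strand counts of 3 groups, all genes of the sample files, size factors of DESeq2 (RLE), total counts, no filter, DESeq2 1.42.0, only the groups compared, a replicate block and leaving out each sample. The lists were not tested as sets.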

Additional observations from a re-analysis of the deposited data

Results flagged for a closer look

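In 4 of 54 groups of 4 samples, 1 sample lay farther from the rest than Dixon's 95% limit allows (gap over range above 0.829), where chance gives about 1 in 20. Dgat1 was at 128.2 CPM in BMAd-Pnpla2+/+ AL replicate 3, above the other 3 samples. Dgat2 was at 84.7 CPM in BMAd-Pnpla2+/+ CR replicate 4, below the others. Aqp7 was at 5.92 CPM in BMAd-Pnpla2+/+ AL replicate 1, the sample with the most adipocyte markers of its group. Acsl5 was at 121.0 CPM in BMAd-Pnpla2+/+ AL replicate 2, above the others.

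The first-strand counts, which no comparison used, held 48.5% to 49.8% of the 8 members' stranded counts in the 3 BMAd-Pnpla2-/- CR samples, against 0.657% to 1.12% in the other 11 samples.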

How the results depend on the processing

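The count of members called with CR in BMAd-Pnpla2+/+ mice was 5 under every alternative other than leaving out single samples. It was 5 or 6 with 1 sample left out, the addition being Pck1. In BMAd-Pnpla2-/- mice, where it was 2, it became 1 with RLE size factors and 1 without a low-count filter, since Lpin1 was lost, 3 with DESeq2, and 4 with only the groups compared, and it ran from 0 to 3 with 1 sample left out. Between genotypes under CR, where it was 0, it became 3 with the deposited matrix, 4 with DESeq2 and 0 to 5 with 1 sample left out. It stayed at 0 for genotype under AL and the interaction in all alternatives run. In these counts the cause of a change was not tested. Members over 50% of their step numbered 2 and 4 in BMAd-Pnpla2+/+ AL and CR samples, and 1 and 2 without length scaling.

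Values close to 0 changed sign. The Gpam interaction was 0.0053 with the deposited matrix, the Dgat1 difference under AL was -0.0078 with a replicate block, and Bscl2 with CR in BMAd-Pnpla2-/- mice was 0.0066 with total counts, which moved the median of all genes there to 0.12 on the log2 scale. With 1 sample left out, the genotype difference under AL ran from -0.27 to 0.099 for Gpam, from -0.074 to 0.052 for Agpat2 and from -0.0094 to 0.11 for Dgat1, that under CR from -0.26 to 0.0104 for Gpam, and the interaction from -0.22 to 0.16 for Gpam and from -0.43 to 0.72 for Pck1. Of the log2 fold changes of named genes recomputed under the alternatives other than leaving out single samples, 561 kept direction and call. There, 14 gained a call, 13 lost it and 3 changed sign. With 1 sample left out at a time, 867 kept direction and call, 17 gained a call, 92 lost it and 18 changed sign.

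Over all genes, calls for CR in BMAd-Pnpla2+/+ mice went from 4543 to 2689 with only the groups compared, and in BMAd-Pnpla2-/- mice from 2025 to 3898 with the deposited matrix and to 248 without CR replicate 3. Between genotypes under CR, 3 became 2451 with the deposited matrix, 1505 with DESeq2 and 2092 without BMAd-Pnpla2+/+ CR replicate 4, and the interaction went from 0 to 678 with the deposited matrix. A replicate block gave 5 and 2 members called for CR. Deviations of 19 pairs of samples with the same number correlated at -0.37 to 0.33, and those of 54 other pairs at -0.44 to 0.36. This gave no sign of pairing by number but cannot show that there is none. Aqp7 rests on 18 to 66 counts in BMAd-Pnpla2-/- AL samples.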
